A study of Saccharomyces cerevisiae with 22 samples.

Results

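The genes described here are the 10 budding yeast genes of branched-chain amino acid synthesis that carry a symbol on the arrays, BAT1, BAT2, LEU1, LEU4, LEU9, ILV1, ILV2, ILV3, ILV5 and ILV6, chosen by pathway and not by their values, out of 5315 genes with a symbol. LEU2, the remaining gene of the leucine branch, is deleted in the strain and was left out. The study followed wild-type BY4742, a haploid laboratory strain of mating type alpha, through temperature shifts in synthetic complete medium with glucose. Heat shock cultures were grown at 30 °C, pelleted, re-suspended in medium of 37 °C and harvested after 5, 15, 30, 45 and 60 min. Cold shock cultures were grown at 37 °C, pelleted, re-suspended in medium of 30 °C and harvested after 5, 15, 30, 45 and 60 min, with the culture at 37 °C as time 0. Each of these 11 conditions was hybridised to a pair of dual-colour arrays. The sample carries Cy3 on array a and Cy5 on array b, and the remaining channel holds a common reference, RNA of untreated BY4742. No genotype other than BY4742 was used.

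Isoleucine, valine and leucine are made along partly shared routes. Acetolactate synthase, a reductoisomerase and a dehydratase, all in the mitochondrion, build the carbon skeletons of isoleucine and valine in parallel, and threonine deaminase feeds the isoleucine route. Leucine branches off from the keto acid that precedes valine, and its synthesis is under the transcription factor Leu3, while many amino acid synthesis genes also answer to Gcn4. The final amino group is added by a mitochondrial and a cytosolic transaminase, which also work in the opposite direction when the amino acids are broken down. Because BY4742 lacks LEU2, its leucine comes from the medium.

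All values are log2 ratios of sample over common reference after print-tip loess, a smoothing curve per print block of the array, or differences of such ratios. Calls needed both an adjusted p below 0.05 (limma, Benjamini-Hochberg) and a change of more than 1.7-fold. The median intensity of the arrays was 209.8 to 526.7 in Cy5 and 195.3 to 394 in Cy3, over backgrounds of 41.69 to 51.57, and precision is limited by the number of arrays. Each of the 10 genes was well above background on all 22 arrays, from LEU9 with a lowest signal of 141.9 to ILV5 with a highest of 10080. LEU2, URA3 and LYS2 are deleted in the strain. LEU2 had signals of 44.0 to 64.8, URA3 of 48.2 to 61.5 and LYS2 of 76.5 to 201. LYS2 was above background on all 22 arrays, and the source of its signal was not tested. Of mating type alpha, MF(ALPHA)1 lay between 3507 and 20550, MF(ALPHA)2 between 209.1 and 7155 and STE3 between 518 and 3174. Of the opposite mating type, MFA1 lay between 60.2 and 111.8 and MFA2 between 53.3 and 81.7. BAR1, also of that type, lay between 68.58 and 137 and STE2 between 88.67 and 265.8, so the ranges of STE2 and MF(ALPHA)2 overlap. Ratios of arrays a and b of a condition correlated across genes at 0.939 to 0.991. Between arrays of 1 dye orientation the lowest correlation was -0.356, between a cold and a heat shock array whose dyes the labels state. According to the submitters the arrays of a condition are separate cultures, whereas the methods describe cultures each measured in dye swap, so that the p-values measure the spread between arrays, which may be technical. The reference stands in for an untreated heat shock culture, not analysed here, so the control's own spread is left out, and pelleting and fresh medium cannot be told apart from temperature. In a whole culture, fewer cells expressing a gene and less of its RNA per cell cannot be told apart either.

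The question of the heat shock course is how expression moves between acute shock and adjustment to 37 °C. Of the 10 members 6 were called lower at 1 or more of the times. BAT2 was called higher from 15 min on, and ILV2, ILV6 and LEU4 were called at no time. The share of all genes called at 1 or more of the times was not computed, so these counts are descriptions. The shares of all genes that follow are each for a single time. At 5 min 2 of the 10 were called lower and none higher, against 6.02% and 6.87% of all genes. At 15 min 6 were lower and 1 higher, against 9.33% and 8.92%, and at 30 min again 6 and 1, against 7.02% and 7.7%. By 45 min 4 were lower and 1 higher, against 1.83% and 4.12%, and at 60 min 3 and 1, against 1.41% and 3.73%. The median of the 10 genes was -0.13, -1.06, -0.98, -0.48 and -0.35 at the successive times, while the median of all genes lay between -0.0020 and 0.0087. The adjusted p alone was passed by 83.2% of all genes and by all 10 members at 15 min, so that the fold threshold set the calls. Among all called genes 51.1% were lower at 15 min, and 65.4% when the arrays were scaled on external control spots. At 45 and 60 min those shares were 30.7% and 27.5%, and 54.7% and 59.9% with no within-array curve.

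**Figure D1:**
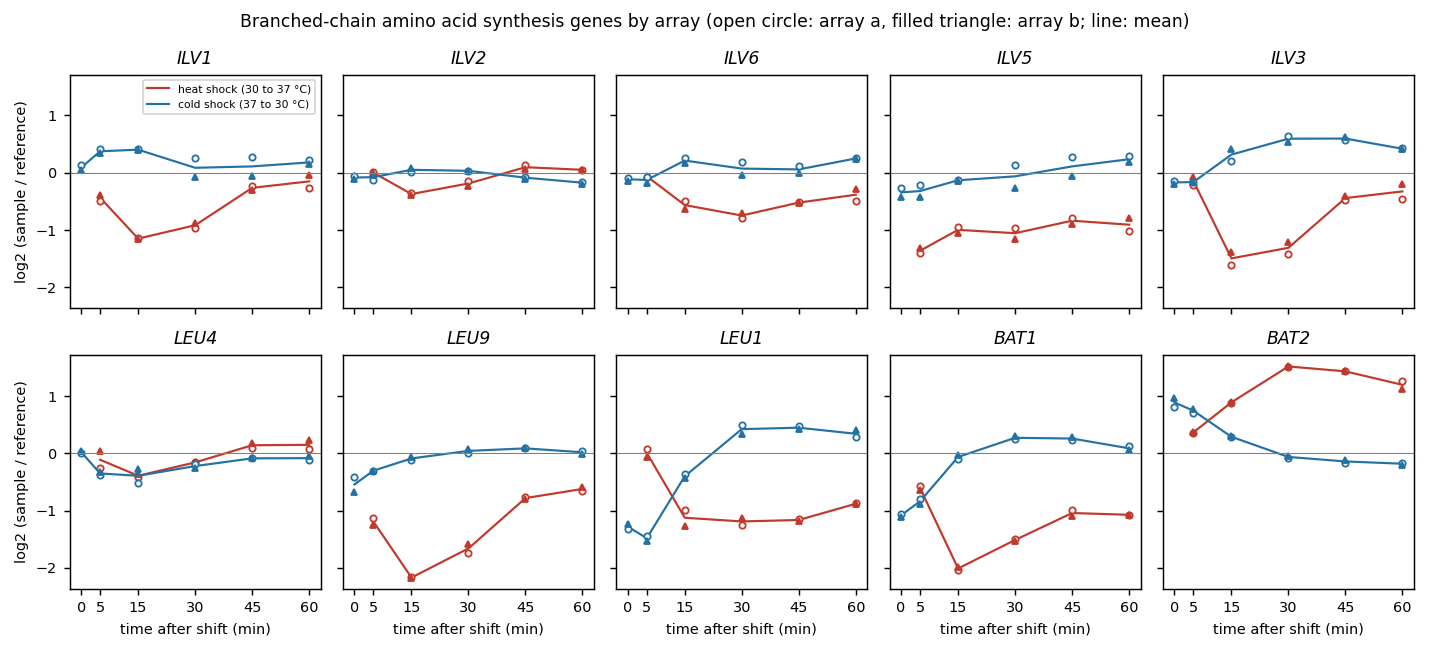
Log2 ratio of sample over common reference (vertical axis) against minutes after the shift (horizontal axis) for each of the 10 genes, with array a as open circles, array b as filled triangles and lines through the means of heat shock (red) and cold shock (blue). LEU9 and BAT1 reach -2.17 and -2.01 at 15 min of heat shock, BAT2 rises to 1.52 at 30 min, and LEU4 and ILV2 stay within 0.51 of the reference on every array.

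ILV1 encodes threonine deaminase, the enzyme that commits threonine to isoleucine. Its ratio was -0.48 on array a and -0.38 on array b at 5 min, -1.14 and -1.15 at 15 min, -0.96 and -0.87 at 30 min, -0.23 and -0.29 at 45 min and -0.26 and -0.04 at 60 min. The arrays of 15 and 30 min lay well below all others. ILV1 thus fell by 1.15 at 15 min (2.22-fold lower, standard error 0.0725, adjusted p = 3.8e-10) and by 0.92 at 30 min, and was not called at the other times.

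Acetolactate synthase is made of the catalytic subunit Ilv2 and the regulatory subunit Ilv6, which confers feedback inhibition by valine. ILV2 gave -0.36 and -0.39 at 15 min, -0.13 and -0.24 at 30 min, and between -0.0034 and 0.14 on the arrays of 5, 45 and 60 min. No time was called. The value at 15 min rests on the normalisation: with print-tip loess it was -0.37, with global loess -1.02, with scaling on external control spots -1.32 and with no within-array curve -1.15, the last 3 called. ILV6 gave -0.49 and -0.64 at 15 min, -0.80 and -0.69 at 30 min and -0.51 and -0.53 at 45 min. Its mean of -0.75 at 30 min stood just short of 1.7-fold, at 1.68-fold lower (adjusted p = 2.3e-09 in limma), and it was called with global loess (-0.77), external control scaling (-0.84), no within-array curve (-0.77) and without array b (-0.82).

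ILV5, the reductoisomerase that acts after acetolactate synthase and also helps to maintain mitochondrial DNA, was the only member called lower at all 5 heat shock times. Array a read -1.41, -0.94, -0.96, -0.78 and -1.02 at 5, 15, 30, 45 and 60 min. Array b read -1.31, -1.05, -1.15, -0.89 and -0.79. Its lowest values were thus those of 5 min, where the mean was -1.36 (2.57-fold lower, standard error 0.0744, adjusted p = 8.5e-11), an order that depends on the normalisation. With external control scaling ILV5 was -1.43 at 5 min and -1.81 at 15 min. Left without a within-array curve, it was -1.56 and -1.59. In the authors' deposited ratios ILV5 was -0.76 at 15 min and -0.71 at 45 min, neither called, and without array a of 60 min it was -0.72 there, not called.

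ILV3, the iron-sulfur dehydratase of the shared route, was near the reference at 5 min, with -0.21 and -0.08, and then read -1.60 and -1.38 at 15 min, -1.42 and -1.20 at 30 min, -0.48 and -0.40 at 45 min and -0.46 and -0.19 at 60 min. The arrays of 15 and 30 min do not overlap with those of any other time. The fall was by 1.49 at 15 min (2.82-fold lower, standard error 0.0549, adjusted p = 4.0e-13) and by 1.31 at 30 min. At 45 min the mean of -0.44 was not called, but was -0.95 with external control scaling and -1.11 with no within-array curve, both called, and at 60 min the latter gave -0.99, also called.

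In the leucine branch, LEU4 and LEU9 encode isozymes of alpha-isopropylmalate synthase, which makes the committed step. LEU4 gave -0.42 and -0.37 at 15 min and 0.07 and 0.23 at 60 min and was called at no time. LEU9 read -1.13 and -1.25 at 5 min, -2.16 and -2.17 at 15 min, -1.74 and -1.58 at 30 min, -0.77 and -0.80 at 45 min and -0.65 and -0.59 at 60 min. LEU9 was lower than LEU4 on all 10 heat shock arrays. The within-array difference of the log2 ratios, LEU4 minus LEU9, was largest at 15 min, at 1.74 and 1.81, and was 0.72 and 0.82 at 60 min. LEU9 was called from 5 to 45 min, with 4.50-fold lower RNA at 15 min (adjusted p = 1.1e-15), and its call at 45 min (-0.78) was lost with global loess (-0.72), external control scaling (-0.55) and no within-array curve (-0.71). The pair are paralogs, and whether their probes share signal was not tested.

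LEU1, the iron-sulfur isomerase that follows, was at the reference level at 5 min, with 0.07 and -0.06. At later times it read -0.99 and -1.26 (15 min), -1.25 and -1.13 (30 min), -1.15 and -1.18 (45 min) and -0.88 and -0.88 (60 min). All 8 arrays from 15 min on lay below both arrays of 5 min. The means of -1.12, -1.19, -1.16 and -0.88 were all called (adjusted p = 1.1e-11, 7.1e-12, 2.8e-11 and 9.6e-10 in limma).

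BAT1 and BAT2 encode the mitochondrial and the cytosolic branched-chain aminotransferase. BAT1 read -0.57 and -0.64 at 5 min, -2.03 and -1.99 at 15 min, -1.49 and -1.54 at 30 min, -0.99 and -1.09 at 45 min and -1.07 and -1.08 at 60 min. BAT2 read 0.36 and 0.37, 0.89 and 0.89, 1.50 and 1.53, 1.43 and 1.43, and 1.26 and 1.13 at the same times. On all 10 heat shock arrays BAT1 thus lay below and BAT2 above the reference. BAT1 fell by 2.01 at 15 min (4.03-fold lower, standard error 0.0323, adjusted p = 3.4e-17) and BAT2 rose by 1.52 at 30 min (2.86-fold higher, standard error 0.0348, adjusted p = 2.3e-15), and both were called from 15 min on. Set against the culture grown at 37 °C in place of the reference, BAT2 was at 0.63 and BAT1 at -0.43 at 30 min, and BAT2 at 0.54 at 45 min, none of them called. The within-array difference, BAT1 minus BAT2, was -0.93 and -1.02 at 5 min, -2.91 and -2.88 at 15 min, -2.99 and -3.06 at 30 min and -2.33 and -2.21 at 60 min. These are paralogs too, and signal shared between their probes was not tested.

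**Figure D2:**
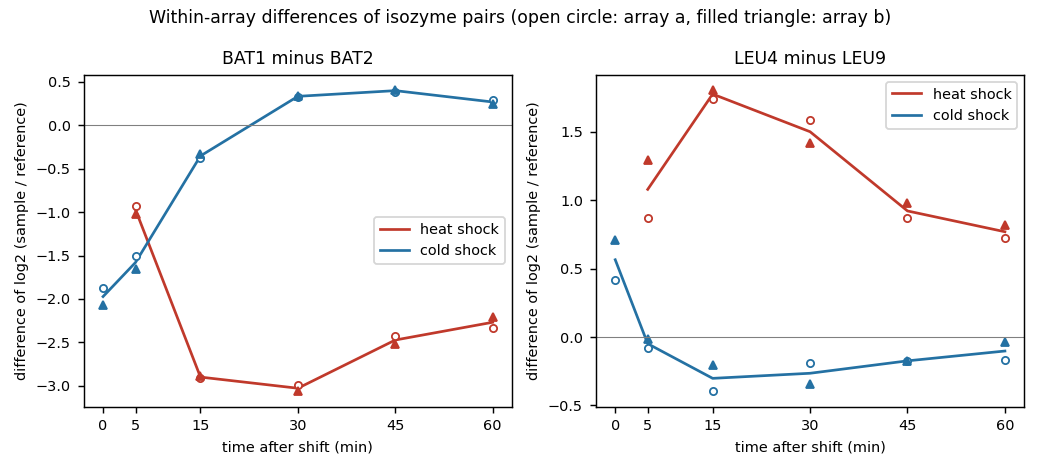
Difference of log2 ratios within each array (vertical axis) against minutes after the shift (horizontal axis), BAT1 minus BAT2 on the left and LEU4 minus LEU9 on the right, with array a as open circles, array b as filled triangles and lines through the means of heat shock (red) and cold shock (blue). In heat shock the transaminase pair reaches -3.06 and the synthase pair 1.81, and in cold shock both pairs move towards 0 and then slightly past it.

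From 15 to 60 min of heat shock 4 members rose and none fell, against 5.63% and 5.1% of all genes. They were LEU9 by 1.55 (standard error 0.0690, adjusted p = 3.2e-11), ILV3 by 1.17, ILV1 by 1.00 and BAT1 by 0.94. On both arrays of 60 min each of these 4 was above both arrays of 15 min. The same arrays gave the calls, so this adds no support to them. LEU1 was 0.24 higher, ILV5 0.09 (95% confidence interval -0.13 to 0.31) and BAT2 0.31, none of them called. The median of the 10 members moved by 0.48 and that of all genes by -0.0014. External control scaling put the all-gene median at 0.28 and moved the lower share of all called genes from 47.5% to 13.3%, and no within-array curve moved that share to 61.1%. The rise of BAT1 was 0.63 with global loess and 0.46 with no within-array curve, neither called, and that of ILV1 was 0.70 with the latter, not called. ILV2 was 0.42 higher at 60 min, not called, and was called with global loess (1.01) and external control scaling (1.28), as were LEU4 (0.80) and LEU1 (0.77) with the latter.

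The culture grown at 37 °C, time 0 of the cold shock course, shows which of these differences were also present without an acute shift. In it LEU1 and BAT1 were lower and BAT2 was higher than the reference, 2 members lower and 1 higher against 1.17% and 2.18% of all genes. LEU1 read -1.32 on array a and -1.24 on array b, a mean of -1.28 (2.43-fold lower, standard error 0.0535, adjusted p = 2.0e-11). BAT1 read -1.06 and -1.10, a mean of -1.08 (adjusted p = 4.6e-13), and BAT2 0.81 and 0.97, a mean of 0.89 (adjusted p = 9.5e-12 in limma). These 3 genes stood apart from the other members. LEU9 was at -0.54 and ILV5 at -0.34, not called, and ILV1, ILV2, ILV3, ILV6 and LEU4 lay between -0.17 and 0.09. BAT2 was not called with global loess (0.74) or external control scaling (0.67), and ILV5 was called with the latter (-0.80) and with no within-array curve (-0.81). These settings gave 2 lower and 0 higher, 3 and 0, and 3 and 1 members, and external control scaling moved the lower share of all called genes from 34.8% to 47%.

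Heat shock at 60 min was set against that 37 °C culture directly. None of the 10 members was called, against 0.339% lower and 1.37% higher of all genes. In limma 6 members had an unadjusted p below 0.05 and 5 passed the adjusted p alone, as did 44.7% of all genes. BAT1 differed by 0.01 (95% confidence interval -0.09 to 0.11), BAT2 by 0.31 (0.20 to 0.41), LEU1 by 0.40 (0.24 to 0.56) and ILV5 by -0.56 (-0.79 to -0.34). At 15 min, set against the same culture, 4 members were lower and none higher, against 8.56% and 7.66% of all genes, namely LEU9 (-1.63), ILV3 (-1.33), ILV1 (-1.24) and BAT1 (-0.93). LEU1 and BAT2 were then at 0.15 and 0.00. At 30 min LEU9, ILV3 and ILV1 were lower and none was higher, against 4.99% and 5.83%, and at 45 min none was called, against 0.847% and 2.03%, with 7 members at an unadjusted p below 0.05 in limma. At 5 min 1 member was lower and 1 higher than in the 37 °C culture, against 347 and 310 of the 5315 genes. They were ILV5 (-1.02) and LEU1 (1.29). For LEU1 and BAT2 the arrays of 15 min of heat shock thus lay close to the level of growth at 37 °C, whereas LEU9, ILV3 and ILV1 lay below it.

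**Figure D3:**
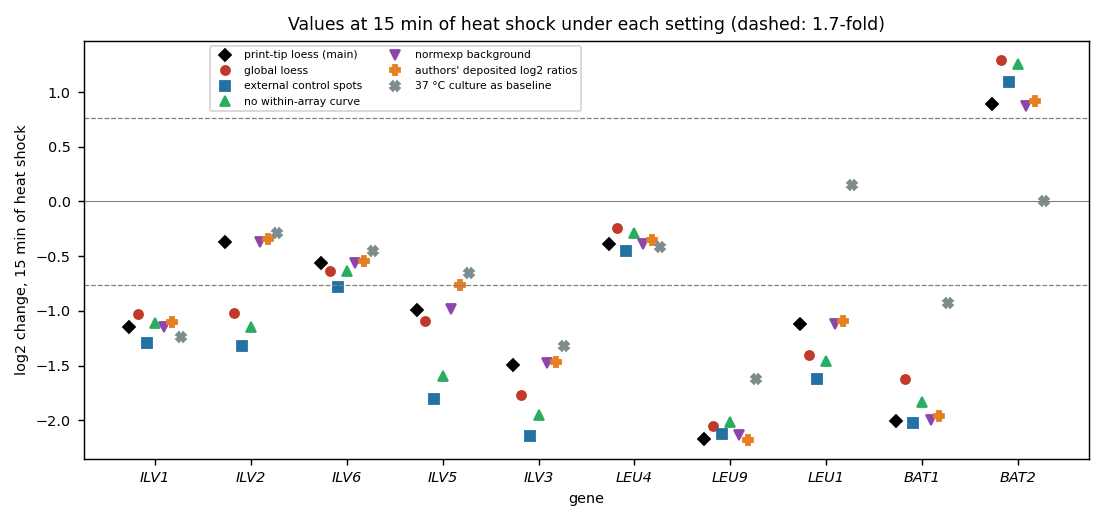
Log2 change of each gene at 15 min of heat shock (vertical axis) by gene (horizontal axis) under each way of processing the arrays and with the 37 °C culture in place of the reference as baseline (grey crosses), with dashed lines at 1.7-fold. Values of LEU9 stay between -2.18 and -1.63, ILV2 splits between -0.29 and -1.32, and LEU1 and BAT2 come to 0.15 and 0.00 with the 37 °C culture as baseline.

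Cooling from 37 to 30 °C was compared with time 0 of its own course. LEU1 and BAT1, called lower at time 0, were called higher from 15 min on, and BAT2, called higher there, was called lower from 30 min on. The arrays of time 0 enter both comparisons, so these movements add no support to the calls at time 0. At 5 min none of the 10 members was called, against 3.2% lower and 2.94% higher of all genes. In limma 6 members passed the adjusted p alone, as did 63.1% of all genes. At 15 min 2 were higher and none lower, against 2.67% and 5.49%. At 30 min 2 were higher and 1 lower, against 1.43% and 4.42%, and the same numbers were called at 45 min (1.05% and 4.16% of all genes) and at 60 min (0.847% and 3.48%). The median of the members was 0.0063, 0.32, 0.23, 0.31 and 0.46 at the successive times, and that of all genes lay between -0.0080 and 0.0029. With external control scaling, and also with no within-array curve, 4 members were higher and 1 lower at 45 and 60 min. The lower share of all called genes was 79.8% at 45 min and 80.4% at 60 min, and 58.6% and 36.4% with external control scaling.

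LEU1 read -1.44 and -1.52 against the reference at 5 min after cooling, -0.37 and -0.43 at 15 min, 0.50 and 0.34 at 30 min, 0.47 and 0.42 at 45 min and 0.28 and 0.40 at 60 min. It crossed the level of the reference between 15 and 30 min. Against time 0 it was at -0.20 at 5 min, not called, then rose by 0.88 at 15 min (adjusted p = 6.7e-08) and by 1.73 at 45 min (3.31-fold higher, standard error 0.0757, adjusted p = 4.2e-11).

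BAT1 read -0.79 and -0.88 at 5 min, -0.09 and -0.03 at 15 min, 0.25 and 0.30 at 30 min, 0.23 and 0.29 at 45 min and 0.12 and 0.05 at 60 min. BAT2 read 0.71 and 0.78, 0.28 and 0.30, -0.08 and -0.04, -0.16 and -0.12, and -0.17 and -0.20 at the same times. On both arrays of each time BAT1 lay above and BAT2 below both arrays of time 0. From 30 to 60 min, however, both genes fell on both arrays. Against time 0 BAT1 rose by 1.02 at 15 min and 1.35 at 30 min (2.56-fold higher, adjusted p = 2.1e-12), and BAT2 fell by 0.95 at 30 min and by 1.07 at 60 min (2.10-fold lower, adjusted p = 9.2e-11 in limma). BAT2 was at -0.60 at 15 min, not called, when BAT1 and LEU1 were.

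Of the other members ILV3 came nearest to the threshold. It read 0.21 and 0.42 at 15 min, 0.65 and 0.54 at 30 min and 0.58 and 0.62 at 45 min, against -0.14 and -0.19 at time 0. Against time 0 it was at 0.76 at 30 min (adjusted p = 5.4e-07) and 0.76 at 45 min, 1.697-fold and 1.699-fold, just short of the 1.7-fold threshold. ILV3 was called at both times with global loess (0.86 and 0.86), external control scaling (1.04 and 1.10), no within-array curve (1.07 and 1.08), normexp background correction (0.77 and 0.77), the authors' deposited ratios (0.80 and 0.83) and without array a of time 0 (0.84 and 0.84). It was also called at 30 min without array b of that time (0.87) and at 45 min without array b of that time (0.79). LEU9 lay between 0.24 and 0.63 above time 0 and was called at no time. ILV5 was called at 45 and 60 min with external control scaling (0.92 and 1.27) and no within-array curve (0.90 and 1.07).

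Set against the common reference, a comparison chosen after the values were seen, LEU1 (-1.48) and BAT1 (-0.84) were still called lower 5 min after cooling, against 3.2% of all genes lower and 4.5% higher. From 15 to 60 min none of the 10 was called in limma, and 6, 4, 5 and 8 of them had an unadjusted p below 0.05. Of all genes 75.8%, 71.1%, 67.2% and 63.7% passed the adjusted p alone at those times. The genes called were 4.46% lower and 3.1% higher at 15 min, 3.39% and 1.66% at 30 min, 2.82% and 0.79% at 45 min and 1.83% and 0.659% at 60 min. At 60 min the members lay between -0.18 (BAT2) and 0.42 (ILV3).

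Ordered over all 11 conditions, BAT1 was lowest at 15 and 30 min of heat shock, followed by 37 °C growth and 60 and 45 min of heat shock, whose means of -1.08, -1.07 and -1.04 do not differ beyond the spread of their arrays. The order of LEU1 began with 5 min of cold shock (-1.48) and 37 °C growth (-1.28), followed by 30, 45 and 15 min of heat shock (-1.19, -1.16 and -1.12), which overlap between arrays. Across the 11 condition means the log2 ratios of BAT1 and BAT2 had a Pearson's r of -0.848, those of LEU4 and LEU9 of 0.124 and those of ILV2 and ILV6 of 0.291. Pearson's r among ILV1, ILV3 and LEU9 was 0.868 to 0.947, and that of BAT1 and ILV3 was 0.959. These values describe 11 means that share the reference and the array normalisation.

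By the same measure over 11 conditions, the genes most like LEU9 were SHR3, EMP70 and GDA1 (r = 0.995 for each). Those most like ILV1 were YHR020W (0.987), IMD4 (0.984) and RPA190 (0.983), the last the largest subunit of RNA polymerase I. For ILV3 they were SCP160 (0.982), RPL19B (0.982) and RPL30 (0.98), and for ILV6 RPP0 (0.986), RPL4A (0.977) and CDC5 (0.976). For BAT1 they were PAB1 (0.96), the pathway member ILV3 (0.959) and ISW1 (0.957), and for BAT2 GPG1 (0.988), MXR2 (0.988) and MOH1 (0.985). GCD1 (0.973), KAR1 (0.965) and CHS7 (0.963) were nearest to ILV5, YPR015C (0.955), LRG1 (0.929) and GGC1 (0.928) to LEU1, and PMT5 (0.962), SLY1 (0.948) and RER1 (0.937) to LEU4. ILV2 had the weakest likenesses, RFC2 (0.836), PAU16 (0.818) and FRS2 (0.801). Pearson's r takes no account of the size of a change. The means of ILV3 ranged from -1.49 to 0.60 and those of SCP160 from -1.51 to -0.02. Those of RPL19B ranged only from -0.35 to 0.26 and those of RPL30 from -0.69 to 0.06. ISW1, named for BAT1, ranged from -0.24 to 0.18, and KAR1, named for ILV5, from -0.11 to 0.52.

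Genes around the pathway were followed as lists. Of 13 regulators and transporters 3 were lower and none higher at 15 min of heat shock, with a list median of -0.09. TAT1, an amino acid permease, read -1.80 on array a and -1.91 on array b, and BAP3, a permease for branched-chain amino acids, -1.25 and -1.10. OAC1, the mitochondrial carrier that also exports the leucine precursor alpha-isopropylmalate, read -1.41 and -1.38, and it was called lower in the 37 °C culture as well (-0.80) and rose by 1.12 at 30 min of cold shock. LEU3 was at -0.58 at 15 min, not called, after -0.84 at 5 min, called, and GCN4 was at 0.03. Of 3 targets of Leu3 outside the 10 genes, OAC1 alone was called at 15 min, with GDH1 at 0.73 and BAP2 at -0.51.

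**Figure D4:**
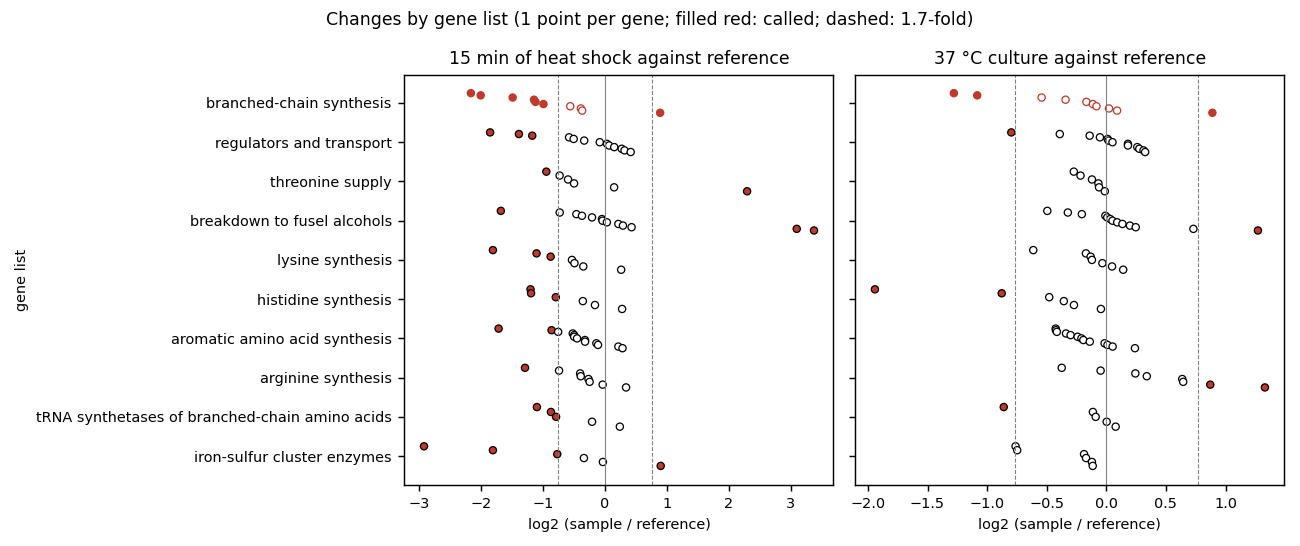
Log2 ratio of sample over common reference (horizontal axis) of each gene, 1 point per gene, by gene list (vertical axis), at 15 min of heat shock on the left and in the culture grown at 37 °C on the right, with called genes filled and dashed lines at 1.7-fold. In the top row 6 of the 10 branched-chain synthesis genes are called lower and 1 higher on the left, and 2 lower and 1 higher on the right.

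Threonine, the substrate of Ilv1, comes from the homoserine pathway. The list of 6 genes also holds CHA1, a catabolic serine and threonine deaminase that is not part of that pathway. At 15 min of heat shock 1 gene was lower, THR1, homoserine kinase, at -0.95. CHA1, at 2.29, was the only gene of the list called higher. CHA1 read 2.24 and 2.34 on its arrays when ILV1, the biosynthetic threonine deaminase, read -1.14 and -1.15. With external control scaling 4 genes of the list were lower, and with no within-array curve 3.

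Of 13 genes for breakdown to fusel alcohols, the route that starts with transaminases such as Bat2, 2 were higher and 1 lower at 15 min. ARO10, a decarboxylase of the keto acids, read 3.40 and 3.35, and ARO9, an aromatic transaminase, 2.99 and 3.21. ATF2, an alcohol acetyltransferase, read -1.71 and -1.65. ARO10 was also higher in the 37 °C culture (1.27) and fell by 1.33 at 30 min of cold shock, and ARO9 was then at 0.73, not called, and fell by 0.81. At 30 min of cold shock 7 of the 13 genes were lower and none higher, against 4.42% and 1.43% of all genes. PDC1, PDC5, PDC6, ADH1 and ADH2 were among the 7, paralogs whose probes may share signal, which was not tested. These pyruvate decarboxylase and alcohol dehydrogenase genes also serve ethanol metabolism, so the count does not speak for fusel alcohols alone. External control scaling gave 3 genes lower at 15 min of heat shock.

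Of the genes for synthesis of other amino acids some were called lower at 15 min of heat shock, beside 9.33% of all genes. The aromatic and arginine counts at that time lie near this share. Of 7 lysine genes 3 were lower, with LYS4, an iron-sulfur homoaconitase of the same enzyme family as Leu1, at -1.81 and LYS21, a homocitrate synthase, at -1.11. Of 6 histidine genes 3 were lower, HIS4 at -1.20 and HIS1 at -1.20 being the lowest. In the 37 °C culture 2 of the 6 were lower, against 1.17% of all genes. HIS4 read -2.01 and -1.88 there and rose by 1.47 at 30 min of cold shock. Of 13 aromatic genes 2 were lower, ARO4 at -1.72 and ARO2 at -0.86, and 5 with external control scaling. Of 8 measured arginine genes (of 10 listed) 1 was lower at 15 min, ARG1 at -1.29, and 2 with each of the other within-array settings. At 60 min 4 were higher, against 3.73% of all genes.

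The tRNA synthetases that load the branched-chain amino acids in the cytosol were ILS1 (-1.10), CDC60 (-0.88) and VAS1 (-0.79), for isoleucine, leucine and valine, and all 3 were called lower at 15 min. The mitochondrial counterparts on the list, ISM1 (-0.21) and NAM2 (0.24), were not called. Of 6 genes of iron-sulfur enzymes outside the pathway 3 were lower and 1 higher, BIO2, biotin synthase, at -2.93, LYS4 at -1.81, GLT1, glutamate synthase, at -0.77 and SDH2 of succinate dehydrogenase at 0.90. In the 37 °C culture none of the 6 was called, against 1.17% lower and 2.18% higher of all genes. The lowest of the 6 was at -0.76 and BIO2 at -0.75, both just short of 1.7-fold. The iron-sulfur member LEU1 was at -1.28 there and ILV3 at -0.17. The lists were chosen with earlier results of these data known, and their counts are descriptions. Those of 15 min of heat shock stand beside 9.33% of all genes lower and 8.92% higher. With external control scaling 751 of the 5315 genes were lower at that time, and 607 with no within-array curve.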

How the data were processed

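RNA of 22 samples was measured on spotted oligonucleotide arrays in 2 colours. The authors deposited the scanner output of each array, mean spot intensities with no background subtracted, and their own normalised log2 ratios per array. Per the submitters' processing notes limma 2.12.0 was used. The deposited comparison table holds log2 fold changes and p-values and was not used. Set against the scanner intensities, the deposited log2 ratios had the opposite sign on 3 arrays, which were turned.

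From the unsubtracted intensities, log2 ratios (sample over reference) were made with limma 3.58.1 in R 4.3.3. Print-tip loess used 48 blocks and a span of 0.4, with control spots and spots above 32768 outside the curve, and each probe is the mean of its 2 spots. Of 6388 gene probes 5326 carry a symbol, for 5315 genes, of which 5309 matched the gene table of assembly R64. Where several probes carry 1 symbol the brightest was taken. The model of all 22 arrays (lmFit, eBayes) held 11 condition coefficients and a term for the dye. Benjamini-Hochberg adjustment ran over 5326 probes. No within-batch value beside the dye was computed, as the labels give no batch. The steps were tested on simulated data.

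All 10 members are named. Of each related list up to 2 called genes that rose most and 2 that fell most after 15 min of heat shock are named, and of each member the 3 genes with the highest Pearson's r. LEU3, GCN4, AGP1 and other single genes outside that rule were named after their values were seen. Members were chosen by pathway and not by their values, but members, lists and tests were all chosen with earlier results of these data known. Alternatives were global loess, scaling on external control spots, no within-array curve, normexp background correction (offset 50), the deposited log2 ratios, no dye term, a call at the adjusted p alone, removal of dim probes, the 37 °C culture as baseline, and leaving out each array. A spot was well above background when it exceeded it by 2.6 background SDs. No sequences are shown, as no sequence table was used here.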

Additional observations from a re-analysis of the deposited data

Results flagged for a closer look

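In 4 members the change against the reference differed between 15 and 60 min of heat shock by a direct test of the difference in limma. The values at 60 min were higher by 1.55 for LEU9 (-2.17 at 15 min and -0.62 at 60 min), by 1.17 for ILV3 (-1.49 and -0.33), by 1.00 for ILV1 (-1.15 and -0.15) and by 0.94 for BAT1 (-2.01 and -1.07), with adjusted p = 3.2e-11, 2.5e-09, 3.6e-07 and 7.9e-11. For each gene both arrays of 60 min were above both of 15 min, which restates the calls, as the same arrays gave them. Groups of 2 arrays are too small for a search for single outlying arrays.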

How the results depend on the processing

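With the 37 °C culture in place of the reference as baseline, LEU1 turned from lower to 0.15 at 15 min of heat shock, 0.0905 at 30 min, 0.12 at 45 min and 0.40 at 60 min, and BAT1 to 0.041 at 45 min and 0.0103 at 60 min. The number of members changed then moved from 7 to 4 at 15 min, from 7 to 3 at 30 min, from 5 to 0 at 45 min and from 4 to 0 at 60 min. All genes called moved from 970 to 862, from 782 to 575, from 316 to 153 and from 273 to 91 at these times. Called by the adjusted p alone, 7, 10 and 8 members were changed at 5, 45 and 60 min of heat shock, 7 in the 37 °C culture, 6, 9, 9, 6 and 7 at the successive times of cold shock and 9 from 15 to 60 min of heat shock. Of all genes 79.8%, 74.5%, 70.9%, 68.7%, then 63.1%, 66.9%, 64.8%, 63.5% and 59.4%, and 68.8% passed the adjusted p alone in these comparisons. From 15 to 60 min 7 members were changed with scaling on external control spots and 2 with no within-array curve, against 4, and at 45 and 60 min of cold shock 5 with either, against 3. Scaling on external controls is extrapolated above a log2 intensity of 10.79, as for ILV5 (12.37), ILV3 (11.88), BAT1 (11.32) and ILV2 (11.05), and put the all-gene median at 0.19 at 45 min and 0.20 at 60 min of heat shock. Against the main setting, 120 values of single members kept their side of the threshold with no replicate block (no dye term), the counts staying at 2, 7, 7, 5 and 4 in heat shock, and also without dim probes. The array letter is also the dye. Deviations of same-letter arrays correlated at -0.127 to 0.815 over 55 pairs of conditions, with a median of 0.355. The dye term of the model is therefore also a term for the letter, and effects of dye and letter cannot be told apart. No pairing beyond that term was used. With each array left out in turn, the counts ranged from 7 to 8 at 30 min and 3 to 4 at 60 min of heat shock and from 3 to 4 at 30 and 45 min of cold shock, and were the same in the remaining comparisons. The cause of these changes was not tested.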

Other observations

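The permease gene AGP1, which takes up branched-chain and other amino acids, was called higher at 5 min of heat shock, at 1.79 on array a and 2.00 on array b, and was at 0.41 at 15 min, not called. Of the arginine list 1 gene was lower and none higher at 5 min of heat shock, against 6.02% and 6.87% of all genes. At 60 min none was lower and 4 were higher, against 1.41% and 3.73%. The 4 were ARG3 at 1.83, CPA1 at 1.45, ARG1 at 0.95 and ARG8 at 0.94. In the 37 °C culture ARG3 (0.87) and CPA1 (1.33) were also called higher, against 2.18% of all genes.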
